A study of Homo sapiens with 18 samples.

Results

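CCS1477, also called inobrodib, was given to H460 cells for 24 h at 5 µM, and their RNA was compared with that of H460 cells that received its solvent DMSO. The members described are the 16424 gene rows of the H460 table, of 20374 genes found in the tables of the whole series, in 6 of its 18 libraries. They were taken by the cell line of the table and not by any value. H460 is a line of large cell lung carcinoma, which the series lists as NRF2-activated together with H2023, beside the wildtype line ABC-1. Each group held 3 libraries, all from the same line, so a result of H460 is a result of 1 line. The dose reads 5 µM in the sample labels but 5 mM in the series text, and µM is used here. Nothing in the labels makes the replicates of a group separate cultures, and the p-values therefore speak of the spread among libraries alone, part or all of which may be technical. In bulk RNA, fewer cells of a kind and less RNA per cell cannot be told apart.

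CCS1477 binds the bromodomain shared by the paralogous histone acetyltransferases p300 (EP300) and CBP (CREBBP). Both are coactivators that transcription factors recruit to enhancers and promoters, where they acetylate histones, and the bromodomain is the part that reads acetylated lysine. Genes with strong enhancers, among them those of cell identity, inflammation and growth factor signalling, are known to be among the most sensitive to their loss.

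The H460 libraries held 30502756 to 33568167 reads with CCS1477 and 26652284 to 28263058 with DMSO. CCS1477 replicate 1 stood apart. Over 8990 genes with at least 10 CPM (reads of a gene per 1000000 reads recovered) it differed from the other CCS1477 libraries by 0.257 and 0.258 on the log2 scale (root mean square), against 0.126 between those and 0.130 to 0.171 among the DMSO libraries. Mitochondrial genes took 0.795% of its reads, against 1.77 and 1.88% in the other CCS1477 libraries and 1.91 to 2.06% with DMSO. It also read higher than replicates 2 and 3 for genes with GC-rich transcripts, by a median of 0.22 on the log2 scale in the top 20% of genes by GC content and by -0.06 in the lowest 20%. Values are therefore given with and without it wherever it moved a call or a value by over 1.5 times. Keratins of simple epithelium were present, with a summed level of the list of 2793 to 3630 CPM with CCS1477 and 2474 to 2521 CPM with DMSO, though CDH1 had no row. None of the 6 endothelial markers had a row, and of the 8 leukocyte markers PTPRC, CD3E, CD4, ITGAM and SPI1 were among those without one. CD68 and LYZ had rows, with a summed level of 15.2 to 15.8 CPM with CCS1477 and 14.8 to 15.1 CPM with DMSO. Of 8 fibroblast markers COL1A2, DCN, FAP and THY1 had no row, and the summed level of the other 4 was 8.64 to 9.80 CPM with CCS1477 and 30.4 to 32.3 CPM with DMSO.

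CCS1477 changed the level of most genes of H460, mostly by little. Of 13516 genes that reached 1 CPM in 3 or more libraries, 7584 (56.1%) passed an adjusted p of 0.05 in limma, 3811 higher (28.2%) and 3773 lower (27.9%). The median size of a change that passed was 0.45 on the log2 scale, and 4206 of these genes (55.5%) changed by less than 0.5. A log2 change of at least 1 was reached by 545 higher genes (4.03%) and 550 lower ones (4.07%). For 65% of the genes tested, every CCS1477 library lay on the same side of every DMSO library. With scaling by library totals, 60.2% of the called genes were higher, in place of 50.3%. Without CCS1477 replicate 1, 27.6% of genes were higher and 29.9% lower, and 3.76% were higher and 4.22% lower by at least 1. Of the 7584 genes, 7106 were called in the same direction without it, 0 in the other direction and 478 in neither, and 662 further genes were called. Of the 190 genes past the threshold that are named below, 190 were past it in the same direction without this library. For the largest changes and the abundant genes among them, this agreement was a condition of being named.

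Large rises lay mostly among genes of low level, and falls reached further up. Among the 20% of genes with the lowest mean level, between 0.57 and 4.13 CPM, 282 genes rose and 223 fell by at least 1 on the log2 scale. The filter of 1 CPM in 3 libraries lets genes near that level enter through the group where they are high. The part of this in the counts of large changes was not tested. Among the 20% with the highest level, from 71.4 CPM, 8 rose and 64 fell by that much, and 26.2% of them were higher and 36.8% lower. Genes of long span were more often higher, with 34.9% higher and 28.8% lower in the longest 20%, against 22.6% higher and 27.6% lower in the shortest 20%. These shares were 35.2% and 28.7% in the longest 20% without CCS1477 replicate 1. Long intergenic noncoding RNAs were more often lower (83 of 350) than higher (54), and so were antisense RNAs (75 against 34 of 321), whereas protein-coding genes were divided evenly (28.9% lower and 29.8% higher).

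**Figure D1:**
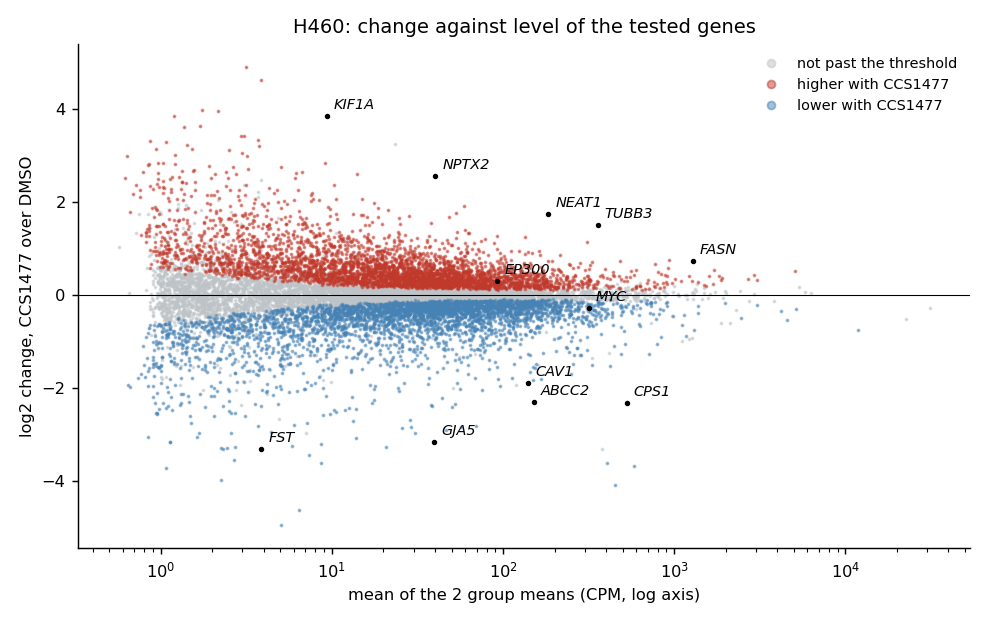
Log2 change of CCS1477 over DMSO (vertical axis) against the mean of the group means in CPM (horizontal log axis) for the 13516 tested H460 genes, 3 libraries per group. Red genes were higher and blue genes lower at an adjusted p of 0.05. KIF1A rose most of the labelled genes, and CPS1, ABCC2 and CAV1 fell although their levels are high.

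The mRNA of EP300 rose slightly, and so did those of several other coactivators. EP300 measured 105, 109 and 98.3 CPM with CCS1477 and 82.4, 80.1 and 80.7 CPM with DMSO. All CCS1477 libraries lay above all DMSO libraries, with a log2 change of 0.29 ± 0.05 (± SE throughout, adjusted p = 0.000987). CREBBP had 105 ± 7.04 CPM with CCS1477 and 93.6 ± 4.24 CPM with DMSO (mean ± SD throughout, n = 3 in each group), a log2 change of 0.10 ± 0.06 that missed the threshold (adjusted p = 0.188) and passed it without CCS1477 replicate 3 (0.15, adjusted p = 0.0419). Of 11 acetyltransferases and coactivators tested, 6 rose and 2 fell, with a median log2 change of 0.29, against 0.00 over all genes. Over all genes 28.2% rose and 27.9% fell, and the counts of this and every later list are to be read beside these shares. KAT2B (PCAF), the paralogue of GCN5, rose by 0.55 ± 0.08, KAT6A (MOZ) by 0.42 ± 0.06 and the nuclear receptor coactivator NCOA3 by 0.37 ± 0.04. KAT6B, the paralogue of KAT6A, was lower (-0.42 ± 0.08), and so was KAT2A (GCN5; -0.26 ± 0.06). Deacetylases moved in both directions, with 4 of 11 higher and 3 lower. The NAD-dependent deacetylase SIRT1 reached 64.9, 68.9 and 71.0 CPM with CCS1477 and 37.8, 36.1 and 37.4 CPM with DMSO. Its groups were far apart relative to their spread (0.80 ± 0.05, adjusted p = 7.89e-06). HDAC6, a cytoplasmic tubulin deacetylase, rose too (0.72 ± 0.07), whereas HDAC7 (-0.75 ± 0.06) and HDAC4 (-0.50 ± 0.04) fell.

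Several genes that hold and release the elongation kinase P-TEFb changed. P-TEFb is CDK9 with a cyclin T, kept inactive by HEXIM1 on the 7SK RNA. HEXIM1 (chromosome 17, 45148502 to 45152101) measured 202, 169 and 168 CPM with CCS1477 and 107, 111 and 111 CPM with DMSO. The lowest CCS1477 library stood well above the highest DMSO library, and the log2 change was 0.63 ± 0.07 (0.54 without CCS1477 replicate 1). CDK9 had 52.3, 38.3 and 38.9 CPM with CCS1477 and 28.5, 28.3 and 29.1 CPM with DMSO. CCS1477 replicate 1 was its highest library, and the log2 change was 0.50 ± 0.11, or 0.36 without that library. The 7SK RNA itself, RN7SK, fell to 6743, 9891 and 11020 CPM with CCS1477, against 15350, 14831 and 13355 CPM with DMSO (-0.76 ± 0.17, adjusted p = 0.00627; -0.54 without CCS1477 replicate 1). Most other structural RNAs tested were lower too, and the part of that shift in this value was not tested. AFF4, the scaffold of the super elongation complex, rose by 0.53 ± 0.04, and ELL2, an elongation factor of the same complex, fell by 0.50 ± 0.04 on the log2 scale. Among the BET proteins, which share this step, BRD3 rose (0.46 ± 0.05). The list of 12 BET and P-TEFb genes had 6 higher and 2 lower. The number lower was 1 when any library other than CCS1477 replicate 3 was left out or with scaling by library totals. The number higher ranged from 4 without DMSO replicate 1 to 8 with scaling by library totals.

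The 14 largest rises included genes known from neurons and from the cytoskeleton. Among them were KIF5C, AMIGO3, KIF1A, PCDH19, CAPN5, DHRS2, NPTXR, TPPP, ARMH4, CORO1A, CARMIL2 and NPTX2. KIF1A, the kinesin that carries synaptic vesicle precursors, reached 19.5, 18.2 and 15.1 CPM with CCS1477 and 1.5, 0.767 and 0.955 CPM with DMSO. Its mean was 16.4 times that with DMSO. NPTX2, a secreted pentraxin that gathers glutamate receptors at synapses, had 78.4, 64.9 and 63.4 CPM with CCS1477 and 10.7, 10.9 and 11.4 CPM with DMSO. Its levels were steady within each group, and the log2 change was 2.55 ± 0.08 (adjusted p = 4.03e-07). The pentraxin receptor NPTXR had 18.3, 16.2 and 13.8 CPM with CCS1477 and 1.99, 2.26 and 1.88 CPM with DMSO, and it rose by 2.82 ± 0.13.

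The other large rises had different roles. CORO1A and CARMIL2, which both act on actin filaments, rose by 2.61 ± 0.14 and 2.60 ± 0.14. TPPP, which promotes tubulin polymerization, rose by 2.75 ± 0.18. The low levels of these genes with DMSO make the log2 change depend on the constant in the deposited values. For KIF5C it was 4.90 with the constant of 4 and 8.57 with 0.1. AMIGO3 lies over GMPPB and CAPN5 over OMP on the same strand in GENCODE 29, and reads of such pairs may not have been told apart.

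**Figure D2:**
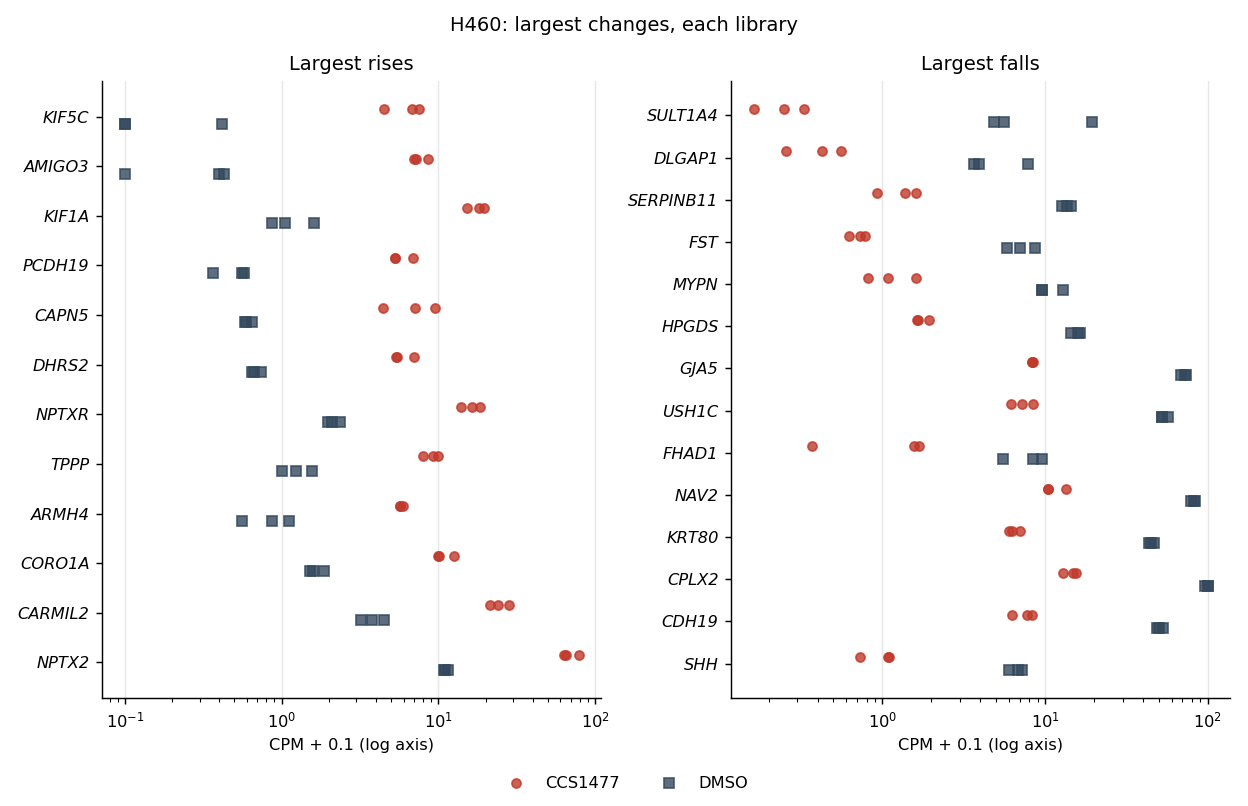
Level of each H460 library in CPM plus 0.1 (log axis) for 12 of the 14 genes with the largest rises (left) and the 14 with the largest falls (right), with CCS1477 libraries as red circles above DMSO libraries as blue squares. No CCS1477 library overlaps a DMSO library in any row, as the rule that chose these genes required.

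The wider lists of neuronal genes moved in both directions. Of 28 tested genes of synapses and neurites, 15 rose and 7 fell (median 0.40). Among genes that reached 1 CPM in all 6 libraries, 8 rose and 6 fell. Of 27 axonal kinesins and microtubule genes, 14 rose and 6 fell (median 0.21). EFNB2, an ephrin ligand, rose by 2.04 ± 0.14 and ROBO1, a guidance receptor, by 0.85 ± 0.06. TUBB3, the neuronal beta-tubulin, stood at 627, 497 and 479 CPM with CCS1477 and 177, 186 and 174 CPM with DMSO. Its mean was 2.98 times that with DMSO, although a readthrough gene overlaps it. Other members fell. CPLX2, a complexin that clamps vesicle fusion, averaged 14.3 ± 1.35 CPM with CCS1477 and 98.5 ± 2.48 CPM with DMSO. The semaphorins SEMA6B (-2.02 ± 0.14) and SEMA3A (-0.99 ± 0.05), the growth cone protein DPYSL2 (-0.66 ± 0.04) and the tubulin TUBB4A (-1.09 ± 0.05) fell as well. DLGAP1, a scaffold of the postsynaptic density, was among the 14 largest falls.

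Neuroendocrine markers likewise did not move as a set. Their summed level was 54.2 to 58.1 CPM with CCS1477 and 34.2 to 37.8 CPM with DMSO. INSM1 and NEUROD1 had no row. ENO2, the neuronal enolase, was higher (1.67 ± 0.09), and so was the vesicle protein SYP (1.20 ± 0.21), while the granule protein CHGA was lower (-0.39 ± 0.09). LRRC23 overlaps ENO2 on its strand.

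Of 34 tested protocadherins, adhesion proteins best known from neurons, 11 rose and 1 fell (median 0.02), and 7 rose without CCS1477 replicate 1. The share of rises lay near the 28.2% over all tested genes. Only 35.3% passed in either direction, against 56.1% over all tested genes. PCDH19 was in the list of largest rises. PCDHA12 (0.60 ± 0.06) and PCDHGB4 (0.61 ± 0.08) belong to clusters whose genes share exons, so that their reads are uncertain, and PCDH9 stands alone (0.60 ± 0.08). Of 30 tested potassium and sodium channels, 4 rose and 13 fell (median -0.26), and 2 rose among genes that reached 1 CPM in all 6 libraries. KCNE4, an accessory subunit, fell to 16.3, 16.4 and 16.5 CPM with CCS1477, against 77.2, 86.3 and 88.1 CPM with DMSO. The leak channel KCNK2 (-1.97 ± 0.07) and the calcium-activated channels KCNN3 (-1.74 ± 0.12) and KCNN4 (-2.61 ± 0.20) fell too.

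The 14 largest falls joined genes of several tissues. They were SULT1A4, DLGAP1, SERPINB11, FST, MYPN, HPGDS, GJA5, USH1C, FHAD1, NAV2, KRT80, CPLX2, CDH19 and SHH. GJA5, the connexin of atrial and arterial gap junctions, had 8.16, 8.23 and 8.30 CPM with CCS1477 and 72.1, 68.7 and 73.0 CPM with DMSO. The mean with DMSO was 8.66 times that with CCS1477, and the spread within each group was a small part of the gap. HPGDS, a prostaglandin D synthase, had 1.55, 1.54 and 1.83 CPM with CCS1477 and 16.3, 14.4 and 15.9 CPM with DMSO (-3.21 ± 0.11). USH1C, a scaffold of microvilli and stereocilia, fell by 2.97 ± 0.11 on the log2 scale. NAV2, a neuron navigator, fell by 2.91 ± 0.10, the keratin KRT80 by 2.87 ± 0.07 and the cadherin CDH19 by 2.84 ± 0.11. SHH, a hedgehog ligand, had 0.867 ± 0.211 CPM with CCS1477 and 6.55 ± 0.607 CPM with DMSO. FHAD1 fell by 2.96 ± 0.52 with all libraries and by 2.28 without CCS1477 replicate 1, its lowest library. SULT1A4 shares its reads with the near-identical SULT1A3, and its value is uncertain.

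Among genes with at least 200 CPM in the higher group, the 8 largest falls included enzymes and a transporter. For these and for the 8 largest rises at this level, groups that do not overlap were a condition of being named. CPS1, the mitochondrial carbamoyl phosphate synthetase that opens the urea cycle (chromosome 2, 210477682 to 210679107), had 169, 189 and 187 CPM with CCS1477 and 832, 897 and 881 CPM with DMSO. The level with DMSO was 4.79 times that with CCS1477 (-2.33 ± 0.06, adjusted p = 1.72e-07). ABCC2, an export pump of conjugates, had 49.8, 55.6 and 52.0 CPM with CCS1477 and 237, 254 and 255 CPM with DMSO. CAV1, the main coat protein of caveolae, had 61.0, 62.6 and 61.0 CPM with CCS1477 and 219, 215 and 222 CPM with DMSO (-1.90 ± 0.04). In each of these genes the groups lay far apart and the libraries of a group close together. The steroid-reducing AKR1C2 and AKR1C3 (-1.84 ± 0.05 and -1.71 ± 0.05), near copies that share reads, the nuclear receptor coactivator NCOA7 (-1.80 ± 0.04), the receptor NOTCH3 (-1.67 ± 0.06) and the kynureninase KYNU (-1.58 ± 0.05) made up the remaining 5 of the 8.

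The largest rises at this level were of other kinds. NEAT1, the architectural long noncoding RNA of paraspeckles, had 257, 200 and 411 CPM with CCS1477 and 79.8, 76.4 and 81.4 CPM with DMSO. Its CCS1477 libraries varied widely, and the log2 change was 1.73 ± 0.22 (limma, adjusted p = 0.000304). EIF4EBP2, a repressor of cap-dependent translation, had 430, 440 and 419 CPM with CCS1477 and 189, 183 and 184 CPM with DMSO (1.14 ± 0.04). The other members of the 8 were TUBB3, the helix-loop-helix inhibitor ID1 (0.94 ± 0.09), the lipid transfer tether ESYT2 (0.86 ± 0.04), the small GTPase RHOF (0.85 ± 0.05), the heterochromatin protein CBX5 (0.75 ± 0.05) and the fatty acid synthase FASN (0.73 ± 0.09). FASN reached 1866, 1606 and 1413 CPM with CCS1477, against 912, 968 and 905 CPM with DMSO.

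Falls and rises differed in the CpG content of their promoters. A pair of promoters of genes that fell, ABCC2 and AKR1C2, is shown beside a pair of genes that rose, KIF1A and TUBB3, as pronounced examples. Each runs 5′ to 3′ from 250 bases before to 50 bases after a RefSeq start on GRCh38.p14, with CG dinucleotides in capitals. KIF1A has 3 RefSeq starts and TUBB3 has 2, and the start nearest to that of the main transcript in GENCODE 29 was used.
ABCC2 (chr10:99782390-99782689, plus strand): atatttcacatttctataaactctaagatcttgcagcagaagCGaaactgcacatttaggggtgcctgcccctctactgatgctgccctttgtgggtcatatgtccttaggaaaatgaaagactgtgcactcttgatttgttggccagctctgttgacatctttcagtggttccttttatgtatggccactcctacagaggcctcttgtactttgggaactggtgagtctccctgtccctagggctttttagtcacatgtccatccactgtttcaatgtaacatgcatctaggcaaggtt
AKR1C2 (chr10:5003808-5004107, minus strand): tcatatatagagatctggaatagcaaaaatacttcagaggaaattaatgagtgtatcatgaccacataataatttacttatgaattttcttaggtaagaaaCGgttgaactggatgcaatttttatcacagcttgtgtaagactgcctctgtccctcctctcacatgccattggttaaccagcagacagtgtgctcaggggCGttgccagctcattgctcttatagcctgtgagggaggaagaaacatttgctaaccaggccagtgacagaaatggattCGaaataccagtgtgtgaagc
KIF1A (chr2:240820170-240820469, minus strand): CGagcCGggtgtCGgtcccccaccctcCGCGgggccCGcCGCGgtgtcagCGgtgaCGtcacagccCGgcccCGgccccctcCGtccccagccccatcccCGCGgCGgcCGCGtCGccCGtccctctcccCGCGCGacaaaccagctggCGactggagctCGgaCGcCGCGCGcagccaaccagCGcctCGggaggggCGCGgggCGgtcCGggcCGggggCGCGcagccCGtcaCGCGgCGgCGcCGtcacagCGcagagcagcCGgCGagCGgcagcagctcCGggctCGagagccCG
TUBB3 (chr16:89923092-89923391, plus strand): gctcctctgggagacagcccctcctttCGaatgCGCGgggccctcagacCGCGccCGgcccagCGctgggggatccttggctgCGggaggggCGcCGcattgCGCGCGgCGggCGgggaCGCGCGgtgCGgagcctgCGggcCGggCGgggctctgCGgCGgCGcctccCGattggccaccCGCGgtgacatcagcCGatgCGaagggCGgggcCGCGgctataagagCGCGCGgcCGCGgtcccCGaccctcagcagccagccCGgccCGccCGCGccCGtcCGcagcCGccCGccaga
These windows hold 1 CG dinucleotide in ABCC2 and 3 in AKR1C2, against 51 in KIF1A and 47 in TUBB3. The letters TATAAA occur in the ABCC2 window, at its base 15, 236 bases before the start, and not in the other 3. These 4 genes were chosen with their changes known, and they show a wider gap than most genes. The quartiles were 18 to 33 in promoters of lower genes and 22 to 37 in those of higher genes. The 2 ranges overlap, and all 4 examples lie outside them.

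Over all genes the same measure followed the direction of change. A promoter was matched for 9809 of 12000 tested protein-coding genes (81.7%), with 81.9% of the higher genes, 81.5% of the lower ones and 81.7% of the others. Genes were split into 5 groups of near equal size by the number of CG dinucleotides. In the group with 0 to 18, 22.1% of genes were higher and 34.1% lower. In the group with 38 to 69, 37.6% were higher and 24.3% lower, and the 3 groups between them ran in order. Without CCS1477 replicate 1 these shares were 21.6% and 36.1% in the lowest group, and 37.3% and 27.3% in the highest. The median count was 30 in promoters of higher genes, 26 in those of lower genes, 27 in those of genes not called and 14 over all 27305 promoters of the table. CpG content goes with GC content and level, and their part in the difference was not tested. For genes changed by at least 1 on the log2 scale, only 76.3% (higher) and 77.5% (lower) had a promoter, under the 80% required, so no value is given for them.

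The letters of 6 short motifs were counted on both strands of the same windows. TATAAA, the letters of the TATA box, was found in 6.82% of promoters of lower genes, 4.30% of those of higher genes and 5.63% of those of genes not called. TGANTCA, the letters that AP-1 binds, was found in 5.44%, 3.35% and 3.75% of the same sets and in 7.68% of all promoters of the table. TGACNNNGC, the letters of the antioxidant response element, was found in 14.6% of promoters of lower genes, 16.0% of those of higher genes and 15.1% of those of genes not called. GGGANTTCC, an NF-kB motif, was found in 2.37%, 1.98% and 2.62% of the same sets, GGAATG, a TEAD motif, in 11.0%, 10.0% and 9.78%, and CACGTG, an E-box, in 10.9%, 9.97% and 10.0%. Over all promoters of the table the shares of these 4 were 13.6%, 1.88%, 14.0% and 7.36%, and that of TATAAA was 12.1%. A match of letters is a description and not a bound site.

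**Figure D3:**
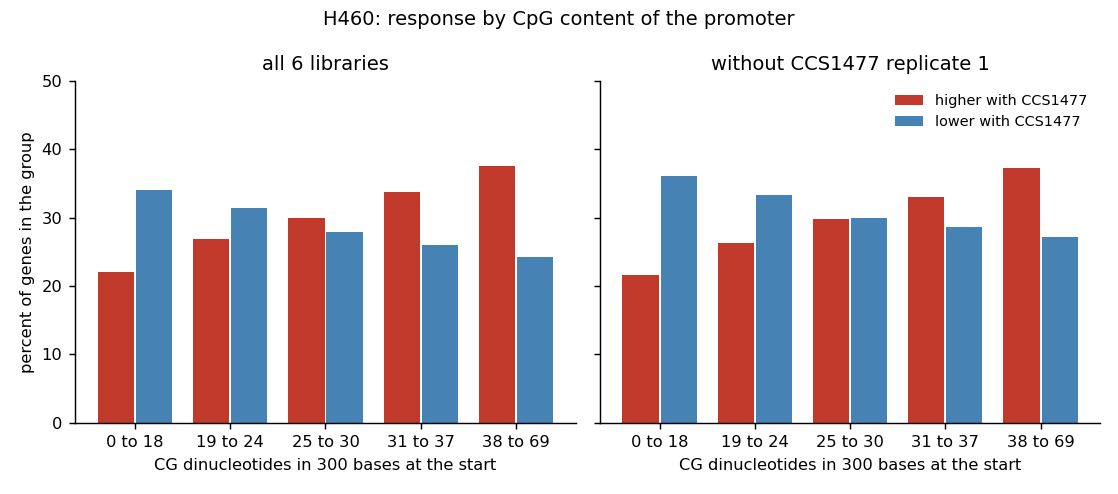
Percent of H460 genes higher (red) and lower (blue) with CCS1477 in 5 groups by the number of CG dinucleotides in the 300-base promoter window, for all 6 libraries (left) and without CCS1477 replicate 1 (right), 9809 protein-coding genes. The share of higher genes climbs from 22.1% in the lowest group to 37.6% in the highest, and the share of lower genes declines from 34.1% to 24.3%.

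Several factors of the immediate-early response and of AP-1 rose, while more feedback regulators of ERK signalling fell than rose. Of 10 immediate-early genes tested 4 rose and 2 fell, and 4 fell without CCS1477 replicate 1. EGR1, a zinc finger factor induced by growth factors, had 7.69, 6.10 and 6.12 CPM with CCS1477 and 2.06, 1.79 and 1.31 CPM with DMSO (1.81 ± 0.18). Among 10 AP-1 subunits tested, 5 rose and 3 fell (median 0.37). JUN had 10.4, 12.6 and 13.5 CPM with CCS1477 and 6.15, 5.11 and 3.26 CPM with DMSO, a log2 change of 1.27 ± 0.22. FOS rose by 1.20 ± 0.16, JUND by 0.71 ± 0.06 and FOSL2 by 0.61 ± 0.05, whereas FOSL1, the subunit raised by sustained ERK activity, fell by 0.47 ± 0.06 and the small MAF protein MAFK by 0.58 ± 0.09 on the log2 scale. The stress-induced phosphatase DUSP1 rose (0.87 ± 0.07), and IER5, an immediate-early regulator, rose by 0.83 ± 0.08. Of 13 genes of the ERK feedback list, 3 rose and 7 fell (median -0.18), and 5 fell with scaling by library totals. ETV4, an ETS factor downstream of ERK, had 63.7, 63.7 and 59.4 CPM with CCS1477 and 124, 130 and 133 CPM with DMSO. The ERK phosphatases DUSP4 (-0.92 ± 0.04) and DUSP6 (-0.70 ± 0.08) and the inhibitor SPRED2 (-0.45 ± 0.04) fell with it. KLF2, a Kruppel-like factor, had 107, 85.7 and 82.1 CPM with CCS1477 and 35.2, 34.1 and 34.6 CPM with DMSO, and its groups did not overlap (1.32 ± 0.09).

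Growth factor receptors and ligands changed in both directions. Of 19 receptors and ligands, 9 rose and 8 fell (median 0.43), and 7 rose among genes that reached 1 CPM in all 6 libraries. NGFR, the p75 neurotrophin receptor, had 5.15, 3.70 and 3.67 CPM with CCS1477 and 0.150, 0.110 and 0.142 CPM with DMSO (3.94 ± 0.23). FGFR3 rose by 2.04 ± 0.15, while EGFR (-0.65 ± 0.04) and the receptor kinase AXL (-1.47 ± 0.12) fell. FGF2, a basic fibroblast growth factor, had 51.4, 52.6 and 53.7 CPM with CCS1477 and 102, 102 and 103 CPM with DMSO, and the angiogenic factor VEGFA fell by 0.75 ± 0.05 on the log2 scale. In the TGF-beta and activin list 13 of 20 fell and 5 rose (median -0.41). The ligands differed. TGFB2 had 8.16, 7.97 and 7.58 CPM with CCS1477 and 56.7, 46.8 and 44.4 CPM with DMSO (-2.69 ± 0.09), and TGFB3 fell by 1.35 ± 0.13, but TGFB1 rose (0.74 ± 0.06). FST, the activin antagonist, was among the 14 largest falls, and INHBA, an activin subunit, fell as well (-2.19 ± 0.27). The signal transducer SMAD3 (-0.58 ± 0.06) was lower.

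NOTCH and WNT genes had no common direction. In the NOTCH list 5 of 13 rose and 5 fell, with 3 falls without CCS1477 replicate 2 or without DMSO replicate 1. NOTCH3 fell, NOTCH1 rose (0.54 ± 0.07), LFNG, a glycosyltransferase of the receptors, rose by 2.12 ± 0.26, and the target genes HEYL (0.77 ± 0.12) and HEY1 (-0.91 ± 0.13) parted. In the WNT list 6 of 21 rose and 8 fell. WNT5A, a noncanonical ligand, had 13.1, 11.8 and 13.4 CPM with CCS1477 and 30.5, 32.1 and 33.3 CPM with DMSO. The ligand WNT10B (-1.27 ± 0.13), the receptor FZD4 (-1.03 ± 0.05) and the R-spondin receptor LGR4 (-0.83 ± 0.04) fell too.

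**Figure D4:**
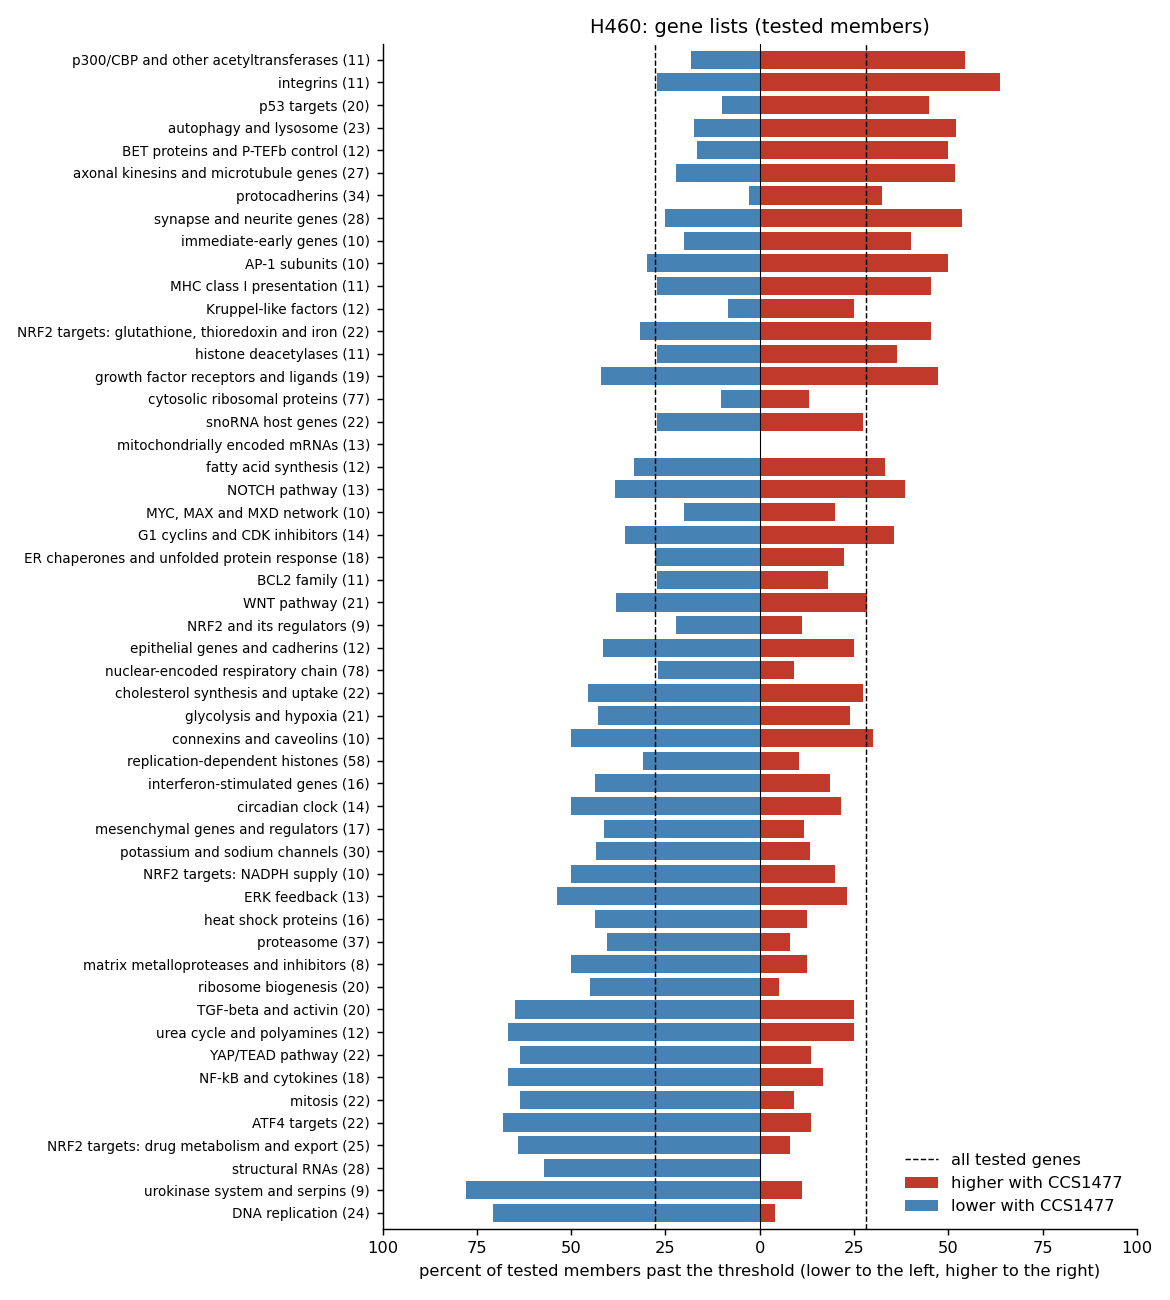
Percent of the tested members of each gene list (number in brackets) that were higher (red, to the right) and lower (blue, to the left) with CCS1477 in H460 at an adjusted p of 0.05. Dashed lines mark the shares over all tested genes, 28.2% higher and 27.9% lower. DNA replication, serpins and NF-kB genes lie mostly to the left, integrins and acetyltransferases mostly to the right.

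Genes of matrix, caveolae and adhesion changed in both directions. FN1, the matrix protein fibronectin, had 994, 1015 and 978 CPM with CCS1477 and 1497, 1701 and 1642 CPM with DMSO (-0.77 ± 0.06). CDH11, a mesenchymal cadherin, had 284, 293 and 296 CPM with CCS1477 and 592, 596 and 604 CPM with DMSO (-1.11 ± 0.04). Of 17 mesenchymal genes and regulators 2 rose and 7 fell, and 4 rose without DMSO replicate 1. The repressors ZEB2 (-1.28 ± 0.07) and SNAI1 (-0.81 ± 0.12) fell, but the intermediate filament VIM rose, to 1959, 1803 and 1793 CPM with CCS1477, against 1313, 1344 and 1346 CPM with DMSO. The fibrillar collagens COL3A1 (-2.48 ± 0.08) and COL1A1 (-1.01 ± 0.13) and the receptor PDGFRB (-1.79 ± 0.21), which were also among the fibroblast markers, fell. Of 12 epithelial genes and cadherins 3 rose, 5 without CCS1477 replicate 3, and 5 fell. The tight junction protein OCLN (1.72 ± 0.15) and the desmosomal DSP (1.40 ± 0.10) rose. Of 11 integrins 7 rose and 3 fell (median 0.38), and 5 rose among genes that reached 1 CPM in all 6 libraries. ITGB3 stood at 0.225 to 0.256 CPM with DMSO and passed the filter only through the CCS1477 libraries. ITGB3 (2.31 ± 0.25), ITGB4 (1.23 ± 0.12) and ITGA3 (1.07 ± 0.10) rose, and ITGB8, which activates latent TGF-beta, fell to 16.0, 15.7 and 15.5 CPM with CCS1477, against 55.0, 58.3 and 56.8 CPM with DMSO.

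Beside CAV1, the caveolar genes CAVIN2 (-1.17 ± 0.05) and CAV2 (-0.81 ± 0.04) were lower. Among connexins GJA5 and GJA1 (-0.66 ± 0.05) fell and GJA3 rose (1.96 ± 0.13). Serpins and the urokinase system had 7 of 9 lower and 1 higher (median -0.79). SERPINB2, the inhibitor of urokinase, had 13.4, 11.6 and 13.3 CPM with CCS1477 and 65.2, 60.5 and 63.3 CPM with DMSO, although SERPINB10 overlaps it. SERPINB5 (maspin) fell by 0.98 ± 0.05 and SERPINE2, an inhibitor of thrombin, by 0.55 ± 0.04 on the log2 scale. Urokinase itself, PLAU, had 2.50 ± 0.131 CPM with CCS1477 and 2.46 ± 0.267 CPM with DMSO, and missed the threshold (-0.04 ± 0.14, adjusted p = 0.833). CD24, a surface glycoprotein, fell by 0.67 ± 0.04.

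Genes of innate immunity were divided. In the NF-kB and cytokine list 12 of 18 fell and 3 rose (median -0.96). CXCL2, a chemokine for neutrophils, had 3.55, 3.02 and 2.92 CPM with CCS1477 and 17.9, 18.5 and 17.1 CPM with DMSO (-2.52 ± 0.10). The cytokine IL6 fell by 1.35 ± 0.07, and NFKBIA, the inhibitor that NF-kB itself induces, had 46.5 ± 2.83 CPM with CCS1477 and 46.8 ± 2.13 CPM with DMSO (-0.08 ± 0.06, adjusted p = 0.275). Interferon-stimulated genes had 7 of 16 lower and 3 higher (median -0.42). OAS1, a sensor of double-stranded RNA, had 43.8, 42.8 and 43.9 CPM with CCS1477 and 106, 103 and 110 CPM with DMSO (-1.36 ± 0.04). IRF7, the factor that drives interferon genes, was higher (2.77 ± 0.32), and so was IFI6 (0.55 ± 0.08). In the MHC class I list 5 of 11 rose and 3 fell. B2M, the light chain, rose by 0.23 ± 0.04 and HLA-E by 0.51 ± 0.07, while the immunoproteasome subunit PSMB8 (-0.77 ± 0.07) and the peptide transporter subunit TAP2 (-0.54 ± 0.07) fell.

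Genes of the DNA replication and mitosis lists fell more often than they rose, by small amounts, while MXD1, MXD4 and CDKN1A rose. MYC, the growth regulator, had 307, 292 and 276 CPM with CCS1477 and 333, 338 and 347 CPM with DMSO (-0.29 ± 0.05). Its antagonist MXD1, which competes for MAX, had 14.9, 14.5 and 14.6 CPM with CCS1477 and 4.99, 4.53 and 4.53 CPM with DMSO (1.55 ± 0.08), although SNRNP27 overlaps it. MXD4, another member of that family, rose by 1.17 ± 0.09, and MLX, a partner of the MXD proteins, fell by 0.49 ± 0.05 on the log2 scale. Of 24 replication genes 17 fell and 1 rose (median -0.27), and 2 rose with scaling by library totals. ORC1, of the origin recognition complex, fell by 0.58 ± 0.05 on the log2 scale. Of 22 mitotic genes 14 fell and 2 rose (median -0.17), with 5 higher without CCS1477 replicate 1 and 1 without DMSO replicate 2 or without DMSO replicate 3. Falls numbered 10 with scaling by library totals (median -0.10) and without DMSO replicate 2, and 11 without DMSO replicate 3. AURKA, the kinase of the spindle poles, had 81.9, 92.2 and 87.3 CPM with CCS1477 and 153, 142 and 149 CPM with DMSO. The kinesin KIF20A (-0.61 ± 0.05) and the kinase PLK1 (-0.38 ± 0.04) were lower as well.

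Regulators of G1 and of survival followed their own patterns. CDKN1A, the p21 inhibitor, had 121, 99.4 and 102 CPM with CCS1477 and 56.1, 55.5 and 58.1 CPM with DMSO (0.85 ± 0.07). Of 20 genes listed as p53 targets 9 rose and 2 fell (median 0.21). CCNG1 (0.67 ± 0.05), the stress sensor SESN1 (0.75 ± 0.06) and the ribonucleotide reductase subunit RRM2B (0.58 ± 0.04) rose, and MDM2, which degrades p53, had 195 ± 10.4 CPM with CCS1477 and 179 ± 3.90 CPM with DMSO (0.05 ± 0.05, adjusted p = 0.447). The G1 kinase CDK6 (-0.68 ± 0.05) and its cyclin CCND1 (-0.45 ± 0.06) fell, and the inhibitor CDKN2D rose (1.20 ± 0.17). In the BCL2 family BCL2 itself had 23.9, 24.6 and 25.2 CPM with CCS1477 and 41.5, 39.2 and 38.3 CPM with DMSO. The proapoptotic BCL2L11 (BIM) rose by 0.79 ± 0.06 and the antiapoptotic MCL1 by 0.41 ± 0.03, its libraries lying at 363 to 364 CPM with CCS1477 and 259 to 262 CPM with DMSO. Of 11 family members 2 rose and 3 fell, 5 without CCS1477 replicate 1.

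Autophagy and lysosome genes rose more often than they fell, and cholesterol genes moved in both directions. Of 23 autophagy and lysosome genes 12 rose and 4 fell (median 0.17). NEU1, the lysosomal sialidase, had 41.9, 34.0 and 36.3 CPM with CCS1477 and 11.9, 14.1 and 10.8 CPM with DMSO (1.53 ± 0.11). NPC2, which hands on cholesterol in lysosomes, had 52.8, 49.5 and 50.7 CPM with CCS1477 and 23.9, 23.6 and 22.9 CPM with DMSO (1.04 ± 0.05). The autophagosome protein MAP1LC3B (0.65 ± 0.04) and the proton pump subunit ATP6V0D1 (0.44 ± 0.04) rose, and TFE3, a transcription factor of lysosomal genes, fell by 0.60 ± 0.06 on the log2 scale. In the cholesterol list 6 of 22 rose and 10 fell. IDI1 (0.68 ± 0.04) and the feedback protein INSIG1 (0.55 ± 0.04) rose, whereas HMGCS1 (-0.61 ± 0.04), MSMO1 (-0.70 ± 0.04) and CYP51A1 (-0.50 ± 0.04), all enzymes of the same synthesis, fell. FASN rose, but ELOVL6, which lengthens its product, had 41.9, 42.4 and 43.5 CPM with CCS1477 and 92.8, 96.5 and 89.8 CPM with DMSO (-1.20 ± 0.05).

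Of 12 genes of the urea cycle and polyamines 3 rose and 8 fell, among them CPS1 and the ornithine carrier SLC25A15 (-0.61 ± 0.06). Falls numbered 5 without CCS1477 replicate 2 or without DMSO replicate 2, and 3 without DMSO replicate 3 or with scaling by library totals. ODC1, which makes putrescine, rose by 0.24 ± 0.04. Glycolysis and hypoxia genes had 9 of 21 lower and 5 higher, and 7 in each direction with scaling by library totals. CA12, a carbonic anhydrase of the cell surface, had 57.2, 60.5 and 60.6 CPM with CCS1477 and 125, 130 and 128 CPM with DMSO. The kinase PDK1, which inhibits pyruvate dehydrogenase (-0.81 ± 0.05), and hexokinase HK2 (-0.47 ± 0.04) fell. HSP90AA1, the inducible cytosolic chaperone, had 5764, 6258 and 6246 CPM with CCS1477 and 4025, 4065 and 4034 CPM with DMSO (0.52 ± 0.06). Of 16 heat shock proteins 2 rose and 7 fell, among them the small ones CRYAB (-2.10 ± 0.20) and HSPB1 (-0.96 ± 0.07). Of 18 genes of endoplasmic reticulum chaperones and the unfolded protein response, 4 rose, 5 fell and 9 missed the threshold. Without CCS1477 replicate 1, 8 of that list fell. Its members XBP1, the unfolded protein factor (-0.99 ± 0.04), and HSPA5, a chaperone (-0.33 ± 0.05), were lower. Clock genes had 3 of 14 higher and 7 lower, and the paralogues PER1 (0.70 ± 0.09) and PER2 (-0.65 ± 0.06) moved in opposite directions.

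Of the factors by which the series classes its lines, NFE2L2, which encodes NRF2, had 124 ± 5.89 CPM with CCS1477 and 124 ± 4.94 CPM with DMSO (-0.08 ± 0.05, adjusted p = 0.192). KEAP1, the adaptor that marks NRF2 for degradation, had a log2 change of -0.20 ± 0.07 (adjusted p = 0.0454). That call held without CCS1477 replicate 1. It ended when any other library was left out (adjusted p = 0.0882 to 0.131), and the change was -0.13 without CCS1477 replicate 3. Over all alternatives tried the change ranged from -0.28 to -0.12 (limma, adjusted p = 0.000822 to 0.180).

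Counts of structural and mitochondrial RNAs moved with single libraries. Structural RNAs took 5.64, 6.81 and 7.57% of reads with CCS1477 and 8.95, 9.01 and 7.94% with DMSO. Of 28 structural RNAs tested, 16 fell and 0 rose (median -0.73), and 21 fell without CCS1477 replicate 1 (median -0.49) and 10 without DMSO replicate 1. RPPH1, the RNA of RNase P, had 3687, 3662 and 4161 CPM with CCS1477 and 5594, 5472 and 4918 CPM with DMSO (-0.55 ± 0.08). RMRP, the RNA of RNase MRP, fell by 0.44 ± 0.10 on the log2 scale. RNA5-8SN2, a 5.8S ribosomal RNA with many copies, ranged from 5.03 to 196 CPM with CCS1477 and from 514 to 1125 CPM with DMSO. Its log2 change of -4.10 ± 1.16 was -2.52 without CCS1477 replicate 1, and its call ended without DMSO replicate 1 (-3.82, adjusted p = 0.0543). None of the 13 mitochondrially encoded mRNAs passed the threshold with all libraries (median -0.81), and 5 fell without CCS1477 replicate 1 (median -0.12). MT-CO2, a subunit of cytochrome oxidase, had 908, 2308 and 2210 CPM with CCS1477 and 2471, 2312 and 2461 CPM with DMSO. CCS1477 replicate 1 stood alone far below the rest. The change of MT-CO2 was -0.61 ± 0.31 (adjusted p = 0.134) with it and -0.17 without it (adjusted p = 0.00945). The share of structural RNA in a library also depends on how RNA was selected, which the sources used here do not give.

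To show where H460 differed from the other lines, its change was set against the mean change of H2023 and ABC-1 in a limma fit of all 18 libraries. Of 11757 genes that reached 1 CPM in 3 or more libraries of each line, the change of H460 was higher for 2863 (24.4%) and lower for 2258 (19.2%). Some large falls of H460, such as those of GJA5 and CPS1, were outside this set and were not compared. It passed against each line alone in the same direction for 1297 and 794. Here and below, the SE of an H460 change comes from the fit of its 6 libraries. The SEs of H2023, of ABC-1 and of the differences come from the fit of all 18, with 1 shared spread per gene. They therefore cannot be compared in size between H460 and the other lines. KIF1A rose by 3.84 ± 0.22 in H460, against 0.69 ± 0.16 in H2023 cells and 1.66 ± 0.16 in ABC-1 cells, a difference of 2.67 ± 0.20 (adjusted p = 6.68e-09). AKAP12, a scaffold of protein kinase A, had 26.2, 28.8 and 30.3 CPM with CCS1477 and 7.20, 6.21 and 6.86 CPM with DMSO in H460. It rose by 1.98 ± 0.09 there, with -0.01 ± 0.08 in H2023 and -1.16 ± 0.08 in ABC-1. RHOU, an atypical GTPase, rose in H460 (1.17 ± 0.12), with -0.23 ± 0.07 in H2023 cells and -2.26 ± 0.07 in ABC-1 cells. SLC16A6, of the monocarboxylate transporter family, fell in H460 to 17.9, 17.5 and 18.0 CPM with CCS1477, against 84.0, 90.6 and 86.1 CPM with DMSO (-2.35 ± 0.05), where the other lines had 0.22 ± 0.14 and 0.56 ± 0.14. DLG2, a scaffold of synaptic membranes, had 15.0, 16.9 and 16.3 CPM with CCS1477 and 72.1, 69.6 and 72.3 CPM with DMSO in H460. Its change was -2.21 ± 0.06, while H2023 had 1.06 ± 0.21 and ABC-1 had 0.53 ± 0.21. TUBA1A, an alpha-tubulin, gave the widest negative difference of the genes named (-3.08 ± 0.06). It had 344 ± 1.75 CPM with CCS1477 and 376 ± 2.57 CPM with DMSO in H460 (-0.20 ± 0.03, and -0.13 with scaling by library totals), but rose by 2.27 ± 0.05 in H2023 and 3.49 ± 0.05 in ABC-1.

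**Figure D5:**
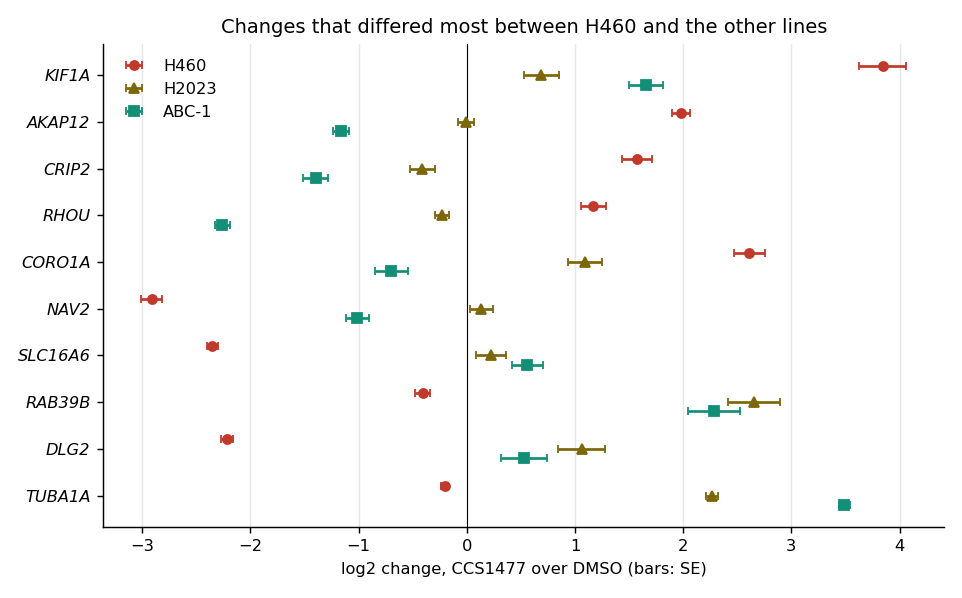
Log2 change of CCS1477 over DMSO with its SE for the 10 genes named by the difference between H460 and the mean of the other lines. H460 is shown as red circles, H2023 as triangles and ABC-1 as green squares, with 3 libraries per group. Bars of H460 come from its own fit, the others from the fit of all 18 libraries. Their lengths cannot be compared between lines. KIF1A, AKAP12, CRIP2, RHOU and CORO1A lie further right in H460, and NAV2, SLC16A6, RAB39B, DLG2 and TUBA1A further left.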

How the data were processed

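Per the labels' protocols, Sepasol was used to extract total RNA from H460, H2023 and ABC-1 cells, treated for 24 h, and directional libraries were read as 150-base pairs. The submitters' processing notes name the build GRCh38. Aligner, counting program, strand setting and RNA selection were not given in the sources used here. The authors deposited log2 values, 1 table per line, each scaled on its own. The values show that each is log2 of a whole number of reads times 1 factor per library, plus a constant of 4 (100% of values of up to 1000 reads whole within 0.1 reads). Recovered reads over all rows gave depth and CPM. At low levels the constant makes a log2 change smaller than the ratio of CPM. Without molecular identifiers, reads are not independent molecules.

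Gene rows that reached 1 CPM in 3 or more of 6 libraries entered a two-sided limma-trend fit (limma 3.58.1, R 4.3.3) of the log2 values as deposited, with 3 libraries of each treatment. P-values were adjusted over all genes tested by the Benjamini-Hochberg method, at a threshold of 0.05. The remaining 2908 gene rows were not tested. Count models had been foreseen had the tables held counts, and were not used. A limma fit of all 18 libraries tested the H460 change against the mean of the other lines. Lists were described by counts and medians, with no set test. Coordinates, types and overlaps came from GENCODE 29 on GRCh38. Of 196 genes named, 13 overlap a protein-coding gene on their strand and 99 any gene on the other strand, and their reads may not have been told apart. Promoters came from RefSeq on GRCh38.p14.

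The genes, lists and rules were chosen with earlier results of these data known. Named were EP300, CREBBP, NFE2L2, KEAP1 and MYC, then the 14 highest and 14 lowest log2 changes with at least 5 CPM in the higher group, groups that do not overlap and the same call without CCS1477 replicate 1. To these came, under the same conditions, the 8 highest and 8 lowest with at least 200 CPM. The 5 highest and 5 lowest differences between lines were added. Such a difference had to pass the threshold with and without CCS1477 replicate 1. It also needed at least 5 CPM in the higher H460 group and H460 groups that do not overlap. Only protein-coding and long noncoding genes entered these rankings, without antisense, clone and readthrough names. Some genes that the rule names are not reported here. From each list up to 5 members with the smallest p and up to 2 that missed the threshold could be named. KAT6B, KAT2A, JUN, AXL, INHBA, COL1A1, COL3A1, PDGFRB, MDM2, ENO2, SYP and CHGA lie outside that rule and were chosen after their values were seen.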

Additional observations from a re-analysis of the deposited data

Results flagged for a closer look

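Listed are the 10 genes under the naming rule whose H460 change differed most from the mean change of H2023 and ABC-1. The differences come from the limma fit of all libraries. TUBA1A differed by -3.08, DLG2 by -3.01, RAB39B by -2.87, SLC16A6 by -2.74 and NAV2 by -2.47 on the log2 scale. KIF1A differed by 2.67, AKAP12 by 2.57, CRIP2 by 2.47, CORO1A by 2.41 and RHOU by 2.41. All 10 passed the threshold, with adjusted p of at most 3.71e-07. Passing it, with and without CCS1477 replicate 1 of H460, was a condition of the choice. So were at least 5 CPM in the higher H460 group and H460 groups that do not overlap. The 10 are the extremes of those among the 11757 genes that met these conditions, so their size is a description. RAB39B, a GTPase of neuronal membrane traffic, had 15.1 ± 0.577 CPM with CCS1477 and 19.1 ± 1.12 CPM with DMSO in H460, where its log2 change was -0.41 ± 0.07, and it changed by 2.65 ± 0.24 in H2023 and 2.28 ± 0.24 in ABC-1. CRIP2, a LIM domain protein, changed by 1.57 ± 0.14 in H460, while H2023 had -0.41 ± 0.12 and ABC-1 had -1.40 ± 0.12.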

How the results depend on the processing

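In H460, 7584 genes were called, 3811 higher and 3773 lower. With an absolute log2 change of at least 1 required as well, 1095 genes were called, 545 higher and 550 lower. Leaving out each library gave 6510 to 7768 called genes, 3303 to 3729 higher and 3192 to 4039 lower. Other scalings, limma-voom, other filters, constants of 0.1 and 1, and transcript rows added to genes gave 7109 to 8204 called genes. Applying the filter again without CCS1477 replicate 1, chosen after seeing the data, gave 7594. For the difference between lines, 2863 genes were higher and 2258 lower, with 2604 to 2850 and 1954 to 2218 when an H460 library was left out, and 1297 and 794 when the threshold had to be passed against each line alone. Replicates with the same number had correlations of 0.0106, 0.0973 and 0.0483 in their deviations from the group means, and not every library correlated best with its own number, so the numbers were not taken to pair the samples. With the replicate number as a block, 7356 genes were called, 3698 higher and 3658 lower, and 2770 were higher and 2142 lower in the difference between lines. The largest changes and the abundant genes were named only if they kept their call without CCS1477 replicate 1. Of 190 named genes past the threshold, 188 passed it in the same direction under every alternative that could be computed for them. The exceptions were KEAP1, lost also with scaling by library totals (-0.12, adjusted p = 0.180), limma-voom (adjusted p = 0.0504), no filter (adjusted p = 0.0586) and the block (adjusted p = 0.0624), and RNA5-8SN2. CREBBP passed with scaling by library totals (0.17, adjusted p = 0.0397). The causes were not tested. At 26652284 to 33568167 reads, precision is limited for genes near 1 CPM.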
